A study of Saccharomyces cerevisiae with 3 samples.

Results

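Nitrogen catabolite repression is the regulation by which budding yeast keeps the genes for poor nitrogen sources low while a good source such as ammonium or glutamine is at hand. The 10 genes described here were listed by name and found on the array by their locus tags, and all 10 were among the 5777 genes measured. They are the GATA-type activators GLN3 and GAT1, the GATA-type repressors DAL80 and GZF3, the ammonium permease genes MEP1, MEP2 and MEP3, the permease genes DAL5 and PUT4, and the glutamine synthetase gene GLN1. The rule that lists them uses no measured value, but the list was drawn up with earlier results of these data known.

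In this pathway, Gln3 and Gat1 are held in the cytoplasm on a good nitrogen source, Gln3 through the protein Ure2, and the kinase complex TORC1 takes part in this control. On a poor source they enter the nucleus and bind GATA sequences upstream of permease and catabolic genes, where Dal80 and Gzf3 can bind as repressors. DAL80 and GAT1 are themselves targets of this circuit, which makes their transcripts readouts of it as well as parts of it. MEP2 encodes the ammonium permease of highest affinity, which is also needed for filamentous growth on little ammonium.

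RNA came from Saccharomyces cerevisiae strain DS10, titled wild type, carrying the plasmid pRS415 with the GPD promoter (a strong constitutive promoter). One group carried TAP on this plasmid and is labelled vector, one Ssz1 S295F, and one residues 365 to 433 of Zuo1 with S427G, called the Zuo1 fragment here. Ssz1 and Zuo1 form the ribosome-associated chaperone complex and are also known as activators of the drug resistance factor Pdr1. All groups were fresh transformants grown to log phase in leucine dropout medium, whose nitrogen source the labels do not give, and RNA of 3 cultures per group was pooled onto 1 one-colour NimbleGen array. With 1 array per group there is no replicate check, and no p-value was computed.

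A level is the array intensity on a linear scale after RMA by the authors, averaged on the log2 scale over the 3 blocks of an array, each of which gives a value for every gene. Log2 ratios are differences of these log2 levels, and the error after a ratio is its SD over the 3 blocks, which reflects noise inside these hybridisations and nothing between cultures. Whether the blocks of a pair of arrays overlap is limited in the same way. Small ratios can lack overlap too, as URE2 did at -0.12 with Ssz1 S295F, and the share of all genes without overlap was not counted. Genes whose log2 ratio was 1 or more in size are described as past 2-fold, and this size rule is no test. Median intensities were 2806 (vector), 2701 (Ssz1 S295F) and 2719.9 (Zuo1 fragment), the lowest correlation between blocks was 0.998, and the median block SD of a ratio was 0.04 in each comparison. The median log2 ratio of all genes was -0.15 for Ssz1 S295F and -0.12 for the Zuo1 fragment over vector, so a gene at 0 lay slightly above the middle gene. Longer genes tended to have higher ratios to vector (Spearman rho of ratio and coding length across genes 0.552 and 0.516, a description, since genes share the arrays). SSZ1 read 10279.5, 19318 and 12001 on the vector, Ssz1 S295F and Zuo1 fragment arrays, highest with its own construct. ZUO1 read 13337, 13744 and 12935. Where its probes lie was not used, so this reading does not check the fragment. The 6 MATa-specific genes looked at lay at or above the 67.15th percentile of every array, while of the 4 MATalpha-specific genes MF(ALPHA)1 and STE3 lay at or below the 2.37th, MF(ALPHA)2 between the 8.93th and 15.03th and SAG1 between the 39.4th and 42.12th. The labels give no mating type.

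**Figure D1:**
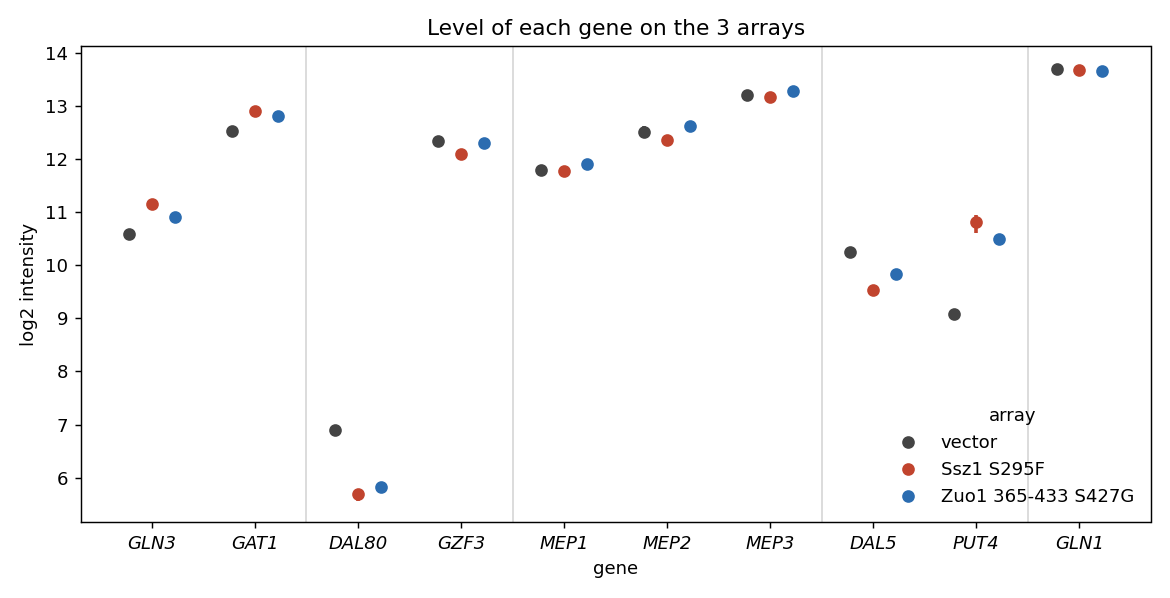
Log2 intensity (vertical axis) of the 10 genes (horizontal axis) on the vector (grey), Ssz1 S295F (red) and Zuo1 fragment (blue) arrays, with points for the mean and lines for the lowest and highest of 3 blocks. PUT4 had its lowest and DAL80 its highest level on the vector array, while GLN1 and the MEP genes lie close together on all 3 arrays; heights of different genes come from different probes and are not compared.

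Of the 10 genes, PUT4 was higher and DAL80 lower past 2-fold with each construct, and the other 8 stayed inside 2-fold in both comparisons with vector. That is 1 of 10 higher and 1 of 10 lower with Ssz1 S295F, against shares of 5.02% higher and 2.77% lower over all genes. With the Zuo1 fragment it is again 1 and 1 of 10, against shares of 3.64% higher and 0.866% lower over all genes. Counts this small in a list of 10 are not set apart from the rest of the array by these shares. The median log2 ratio of the 10 was -0.03 for Ssz1 S295F and 0.09 for the Zuo1 fragment, beside -0.15 and -0.12 for all genes. After the trend with coding length was subtracted the medians were -0.04 and 0.10, beside 0.017 and 0.015 for all genes. The 10 thus no longer lay above all genes with Ssz1 S295F. Both comparisons use the same vector array.

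**Figure D2:**
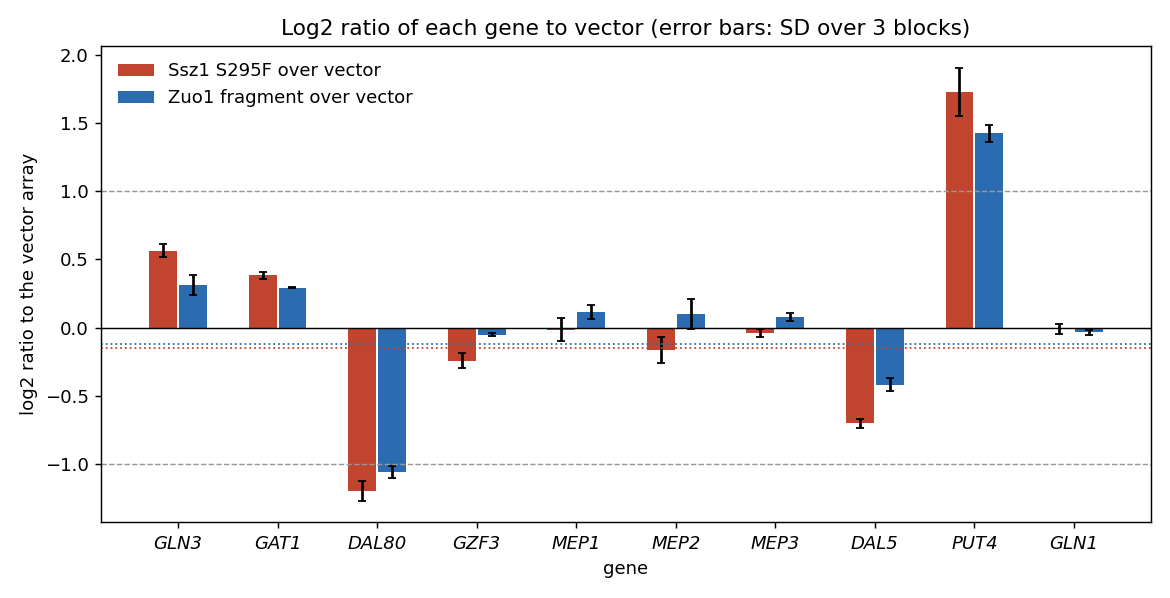
Log2 ratio to the vector array (vertical axis) of each gene with Ssz1 S295F (red) and the Zuo1 fragment (blue), with error bars of 1 SD over 3 blocks, dashed lines at 2-fold and dotted lines at the median of all genes. PUT4 (1.73 and 1.42) and DAL80 (-1.20 and -1.06) pass the dashed lines, and GLN3, GAT1 and DAL5 lie between them and 0.

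The activator genes came out above vector with both constructs, inside 2-fold. GLN3 (YER040W, chromosome V, 229794 to 231986), the activator that Ure2 retains, read 1548 with vector, 2288 for Ssz1 S295F and 1926 for the Zuo1 fragment. Its log2 ratio to vector was 0.56 ± 0.05 for Ssz1 S295F and 0.31 ± 0.07 for the Zuo1 fragment, at the 89.4th and 86.8th percentiles of all genes. The blocks of the 3 arrays did not overlap for this gene, so the order of vector, Zuo1 fragment and Ssz1 S295F held in every block. GAT1 (YFL021W, chromosome VI, 95964 to 97496), the activator whose own transcription is under nitrogen control, read 5897, 7699 and 7226 on the same arrays. Its ratios were 0.38 ± 0.03 and 0.29 ± 0.00, at the 85.6th and 86.2nd percentiles. Both construct arrays lay above every vector block for GAT1, but their own blocks overlapped each other. Both activators kept a ratio above 0 under all 9 alternative ways of computing it, with GLN3 between 0.47 and 0.78 and GAT1 between 0.35 and 0.53 for Ssz1 S295F. Several of the 9 reuse the same block values and are no separate check. They are the series-wide value table, each single block and a filter on low levels.

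The repressor genes lay below vector, DAL80 past 2-fold and GZF3 by little. DAL80 (YKR034W, chromosome XI, 506540 to 507349), a repressor that is itself induced by Gln3 on poor nitrogen, read 119 with vector, 51.8 for Ssz1 S295F and 56.9 for the Zuo1 fragment. Vector blocks ran from 113.5 to 127.1, and the construct blocks from 47.4 to 59.6, with no overlap between vector and either construct. The ratios were -1.20 ± 0.07 and -1.06 ± 0.04, at the 1.2nd and 0.6th percentiles of all genes, and all 3 blocks passed 2-fold in each comparison. All 3 readings lay below the 5th percentile of their array (211, 193 and 189), at the 3.34th, 2.09th and 2.25th percentiles, so the size of this difference is uncertain beyond its block SD. DAL80 also has a short coding length of 810 bp, and once the trend of the ratio with coding length was subtracted it stood at -0.85 and -0.79, inside 2-fold. Subtracting the trend with mean level instead left it at -0.67 and -0.57. With the Zuo1 fragment, centring the ratios on the median of all genes alone brought it to -0.94.

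GZF3 (YJL110C, chromosome X, 209918 to 211573), the Dal80 relative, read 5225 with vector, 4414 for Ssz1 S295F and 5038 for the Zuo1 fragment. Its ratio was -0.24 ± 0.05 with Ssz1 S295F, where the blocks did not overlap those of vector. With the Zuo1 fragment it was -0.05 ± 0.01, where they overlapped, and centring on the median of all genes turned it to 0.07. Relative to the middle gene, GZF3 was therefore within 0.1 of it on both construct arrays.

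Ammonium permeases, which import the nitrogen source that triggers repression, stayed close to vector on both construct arrays. MEP1 (YGR121C, chromosome VII, 731454 to 732932) read 3571 with vector, 3533 for Ssz1 S295F and 3863 for the Zuo1 fragment. MEP2 (YNL142W, chromosome XIV, 357455 to 358954) read 5862, 5236 and 6283. MEP3 (YPR138C, chromosome XVI, 810980 to 812449), the permease of low affinity and high capacity, read 9527, 9262 and 10047. For each of the 3 genes the order was Ssz1 S295F lowest, then vector, then the Zuo1 fragment.

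With Ssz1 S295F the ratios were -0.02 ± 0.08 for MEP1, -0.16 ± 0.09 for MEP2 and -0.04 ± 0.03 for MEP3, and the blocks of MEP1 and MEP3 overlapped those of vector. Centred on the median of all genes these became 0.13, -0.01 and 0.11, so the sign of MEP1 and MEP3 depended on the scaling. With the Zuo1 fragment the ratios were 0.11 ± 0.05, 0.10 ± 0.11 and 0.08 ± 0.03, and the MEP2 blocks overlapped those of vector. These ratios stayed above 0 under all 9 alternatives, but several of those reuse the same block values and centring raises the ratios. The lowest MEP2 value was 0.01, in a single block. MEP1 and MEP3 are close relatives, and signal passing between their probes was not tested.

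The permease genes outside the MEP family differed in opposite directions. DAL5 (YJR152W, chromosome X, 719660 to 721291), which encodes the permease for allantoate and ureidosuccinate and is a common reporter of nitrogen repression, read 1216 with vector, 746 for Ssz1 S295F and 909 for the Zuo1 fragment. The ratios were -0.70 ± 0.03 and -0.42 ± 0.05, at the 8.5th and 16.5th percentiles of all genes, with no overlap of blocks between any of the arrays. DAL5 thus lay below vector in every block without reaching 2-fold, and stayed below 0 under all 8 alternatives that kept it. These ran from -0.77 to -0.33 for Ssz1 S295F and from -0.46 to -0.11 for the Zuo1 fragment, where the difference could thus become small.

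PUT4 (YOR348C, chromosome XV, 986896 to 988779), the high-affinity proline permease, had the widest range of the 10 genes. It read 540.4 with vector, 1794 for Ssz1 S295F and 1451 for the Zuo1 fragment. Vector blocks ran from 534.2 to 545.2, Ssz1 S295F blocks from 1563 to 1982 and Zuo1 fragment blocks from 1385 to 1514, with no overlap between arrays. These readings give a ratio of 1.73 ± 0.18, or 3.32-fold, with Ssz1 S295F and of 1.42 ± 0.06, or 2.69-fold, with the Zuo1 fragment. They stood at the 98.2nd and 98.1st percentiles of all genes, and all 3 blocks passed 2-fold. The ratio stayed past 2-fold under 8 alternatives (1.53 to 2.10 and 1.35 to 1.76). Of these, the series-wide table and the 3 single blocks reuse the values of the main ratio. The remaining one, a filter that drops genes below the 25th percentile on both arrays of a pair, kept PUT4 through its construct readings (35.1 and 28.47) and says nothing about it. The vector reading lay at the 10.2nd percentile of its array.

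GLN1 (YPR035W, chromosome XVI, 642205 to 643317), which makes glutamine from glutamate and ammonium, read 13259.9 with vector, 13168 for Ssz1 S295F and 12949 for the Zuo1 fragment. Its ratios of -0.01 ± 0.04 and -0.03 ± 0.02 were close to 0, and its blocks overlapped those of vector in both. Centred on the median of all genes they became 0.14 and 0.09. The largest distance between any arrays was 0.03 on the log2 scale, beside 1.73 for PUT4.

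**Figure D3:**
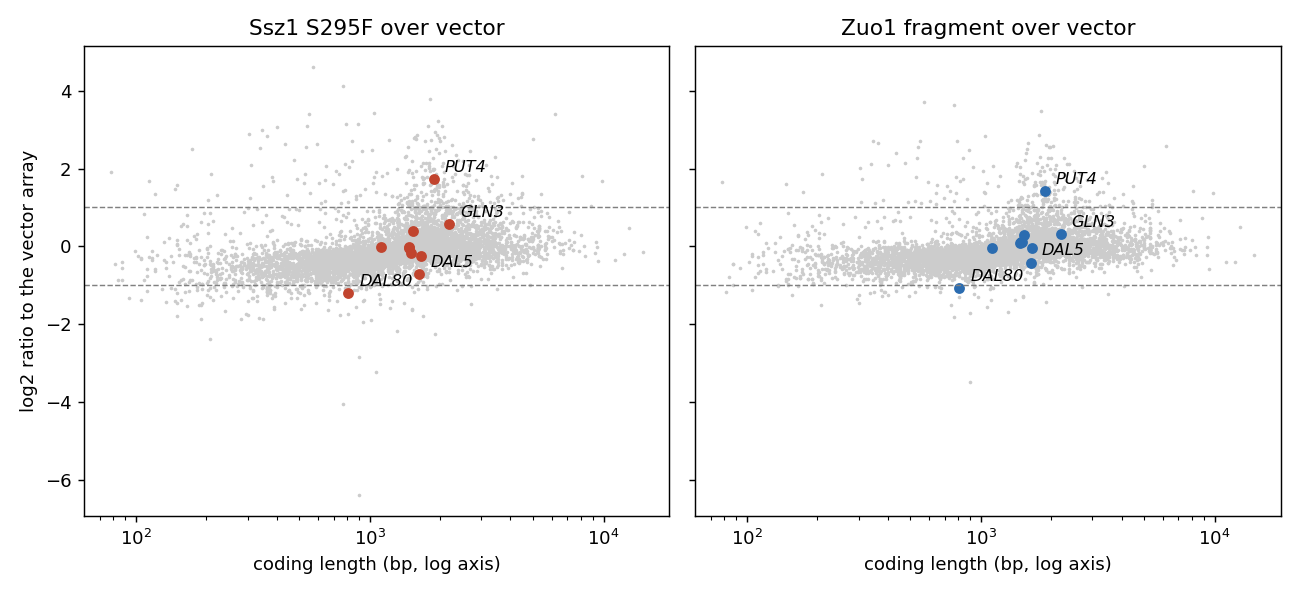
Log2 ratio to the vector array (vertical axis) against coding length in bp (horizontal log axis) for all 5777 genes (grey) and the 10 nitrogen genes (coloured), with Ssz1 S295F on the left and the Zuo1 fragment on the right and dashed lines at 2-fold. Short genes lie lower as a whole; DAL80, the shortest of the 10 at 810 bp, lies at the lower edge of the cloud, and PUT4 at 1884 bp lies above the dashed line in both panels.

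Most of the 10 genes have coding lengths between 1470 and 2193 bp, with GLN1 at 1113 bp and DAL80 at 810 bp outside that span, and their median of 1516.5 bp is above the 1233 bp of all genes. Subtracting the trend with length left PUT4 at 1.63 and 1.36, DAL5 at -0.77 and -0.46, and GLN3 at 0.47 and 0.26 for Ssz1 S295F and the Zuo1 fragment. Each of the 10 genes was read by 8 probes, the most that any gene had, and none overlapped another gene of the array.

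Between the construct arrays all 10 genes lay inside 2-fold, as did 5761 of the 5777 genes of the array. None passed 2-fold in the comparison of the Zuo1 fragment with Ssz1 S295F, 0 of 10, against shares of 0.138% higher and 0.138% lower over all genes. The largest ratios were of PUT4 (-0.31 ± 0.11), DAL5 (0.29 ± 0.08), MEP2 (0.26 ± 0.10) and GLN3 (-0.25 ± 0.09). Though small, these stood at the 5.1st, 94.6th, 93.7th and 7.2nd percentiles of the ratios of all genes, toward the ends of a narrow range. They were picked from the 10 by this same ratio, and the rest lay between the 21.6th (GAT1) and 88.3rd (GZF3) percentiles. GZF3 stood at 0.19 ± 0.05, DAL80 at 0.13 ± 0.11, MEP1 at 0.13 ± 0.07, MEP3 at 0.12 ± 0.00, GAT1 at -0.09 ± 0.02 and GLN1 at -0.02 ± 0.02. For PUT4, GLN3, GAT1, DAL80, GZF3 and DAL5 the Zuo1 fragment reading lay between vector and Ssz1 S295F. The share of all genes with this order was not counted, so it does not set these genes apart from the array. Of all 5777 genes, 450 passed 2-fold from vector under Ssz1 S295F, but only 260 under the Zuo1 fragment.

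A further 55 genes in 7 lists, called other nitrogen genes here, were read in the same comparisons to see where the 10 stand. The list of other genes with a GATA-type zinc finger was chosen by protein domain and not by a role in nitrogen use. It holds GAT2 and SRD1, which are among the genes counted next. Past 2-fold, 4 of the 55 were higher and 2 lower under Ssz1 S295F, and the Zuo1 fragment had 4 higher and 0 lower. These are 7.27% and 3.64% of the 55 for Ssz1 S295F, near the 5.02% and 2.77% of all genes, and 7.27% and 0% for the Zuo1 fragment, beside 3.64% and 0.866%. Counts within the single lists below, of 4 to 15 genes each, are too small to be set apart from the shares of all genes. Centred on the median of all genes, the counts were 5 higher and 1 lower, and 4 higher and 0 lower. Their medians were -0.09 and -0.10, close to the -0.15 and -0.12 of all genes.

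Genes for allantoin and urea, the pathway that Dal5 and Dal80 serve, had medians below those of all genes. Of 10 genes, 1 was lower past 2-fold under Ssz1 S295F and 0 under the Zuo1 fragment, and the medians were -0.32 and -0.51 (-0.25 and -0.23 after the trend with coding length was subtracted). A ratio below 0 was seen in 8 of 10 for each construct, beside 65.8% and 67.5% of all genes, and 6 and 8 of 10 lay below the median of all genes. On chromosome IX, between 406257 and 415614, DAL1 (allantoinase), DAL4 (allantoin permease), DAL2 (allantoicase), DCG1, DAL7 (a malate synthase) and DAL3 (ureidoglycolate lyase) follow each other. Their ratios in that order were -0.10, -0.31, -0.68, -0.69, 0.49 and -1.04 with Ssz1 S295F, and -0.49, -0.62, -0.66, -0.76, 0.50 and -0.56 with the Zuo1 fragment. Several rest on low readings, with DAL1, DAL4 and DCG1 between the 6.46th and 9.14th percentiles and DAL3 between the 9.28th and 16.55th. The block SD was 0.10 for DAL1 with Ssz1 S295F and 0.26 for DAL7 with the Zuo1 fragment. DAL7 alone of the cluster lay above vector, and it has a close relative, MLS1, whose signal was not separated from it. DAL3 passed 2-fold in 2 of 3 blocks with Ssz1 S295F, is 588 bp long, and stood at -0.89 centred on the median of all genes and at -0.60 once the trend with length was subtracted.

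For the use of GABA, proline, arginine and asparagine, 1 of 10 genes was higher past 2-fold with each construct. This was UGA3, the activator of GABA genes, which read 733 with vector, 1739 for Ssz1 S295F and 1511 for the Zuo1 fragment (1.25 ± 0.29 and 1.04 ± 0.09, past 2-fold in 2 of 3 blocks each). The GABA permease gene UGA4 was at -0.42 ± 0.08 and -0.44 ± 0.03, and CAR2, of arginine breakdown, at -0.42 ± 0.06 and -0.27 ± 0.05. The proline genes that follow Put4 in the pathway stayed inside 2-fold, with the oxidase gene PUT1 at 0.40 ± 0.02 and 0.33 ± 0.10 and the dehydrogenase gene PUT2 at 0.24 ± 0.05 and 0.17 ± 0.05. PUT3, which encodes their activator, stood at 0.32 ± 0.34 and 0.14 ± 0.22, within its block SD. All 3 thus lay much closer to vector than PUT4. Some values of this list rest on low readings. UGA3 lay at the 13.74th percentile on the vector array. UGA4 lay between the 9.07th and 10.8th over the arrays, and PUT1 between the 9.52th and 13.85th.

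Among 6 other transporters, DIP5, the permease of glutamate and aspartate, was higher past 2-fold with each construct, from 2984 with vector to 9032 and 9337 (1.60 ± 0.14 and 1.65 ± 0.03). GAP1, the general amino acid permease and a classic target of nitrogen repression, stood at -0.23 ± 0.04 and 0.03 ± 0.03. OPT2 was at -0.76 ± 0.12 and -0.48 ± 0.08, and PTR2, a permease of small peptides, at 0.25 ± 0.01 and 0.20 ± 0.03. Of the 4 genes of glutamate synthesis and breakdown, none passed 2-fold. For Ssz1 S295F and the Zuo1 fragment, GDH1 stood at 0.08 and -0.00, GDH2 at -0.10 and -0.12, GDH3 at 0.04 and -0.12, and GLT1 at 0.08 and -0.04.

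Vacuolar proteases split. PRB1 read 2599 with vector, 7217 for Ssz1 S295F and 6484 for the Zuo1 fragment (1.47 ± 0.05 and 1.32 ± 0.04), CPS1 was at 0.72 ± 0.06 and 0.68 ± 0.08, PEP4 at -0.03 ± 0.04 and 0.03 ± 0.02, and LAP4 at -0.73 ± 0.05 and -0.38 ± 0.04. Of 15 regulators upstream of the GATA factors and of Mep2, 0 passed 2-fold. Over all genes, 5.02% were higher and 2.77% lower with Ssz1 S295F, and 3.64% and 0.866% with the Zuo1 fragment. NPR1, the kinase that keeps Mep2 and other permeases active, came closest, from 1501 with vector to 2997 and 2506 (0.998 ± 0.09, just short of 2-fold, and 0.74 ± 0.01). Centred on the median of all genes it passed 2-fold with Ssz1 S295F, at 1.15. NPR3, of the complex that restrains TORC1, stood at 0.77 ± 0.02 and 0.56 ± 0.09, TAP42 at -0.42 ± 0.03 and -0.36 ± 0.07, LST8 at -0.33 ± 0.00 and -0.27 ± 0.01, and URE2 at -0.12 ± 0.01 and -0.08 ± 0.02.

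Of 6 other genes with a GATA-type zinc finger, GAT2 was higher past 2-fold with each construct, reading 531.6 with vector, 2340.2 for Ssz1 S295F and 1562 for the Zuo1 fragment (2.14 ± 0.02 and 1.56 ± 0.02). SRD1 was lower past 2-fold with Ssz1 S295F (-1.27 ± 0.05) and at -0.83 ± 0.02 with the Zuo1 fragment. It is 666 bp long and stood at -0.87 and -0.52 after the trend with length was subtracted. ASH1 was at -0.35 ± 0.03 and -0.15 ± 0.08. The vector reading of GAT2 lay at the 10.07th percentile of its array, and the SRD1 readings between the 6.96th and 13.29th. The readings of GAT3, GAT4 and ECM23 lay below the 5th percentile on every array.

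**Figure D4:**
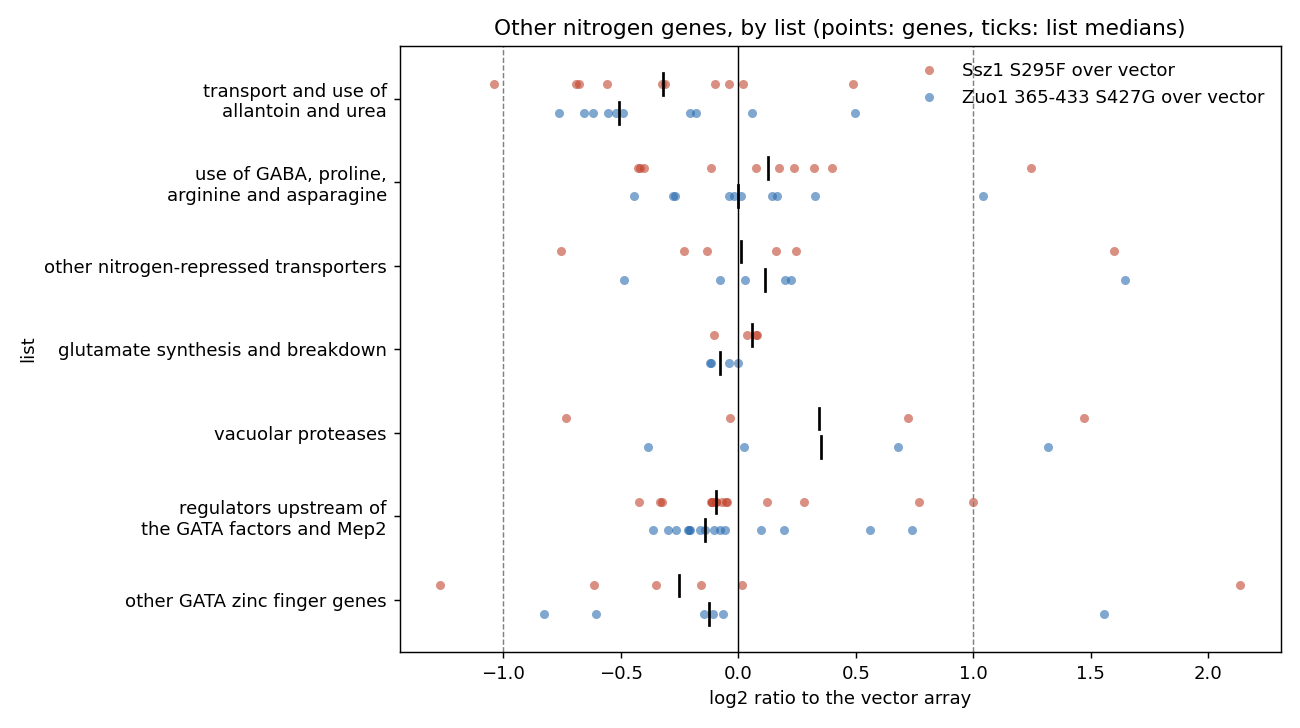
Log2 ratio to the vector array (horizontal axis) of 55 other nitrogen genes in 7 lists (vertical axis), with Ssz1 S295F in red and the Zuo1 fragment in blue, points for genes, ticks for list medians and dashed lines at 2-fold. Most genes lie inside 2-fold; UGA3, DIP5, PRB1 and GAT2 lie above it with both constructs, and DAL3 and SRD1 lie below it with Ssz1 S295F.

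Among 4078 genes at or above the 25th percentile on every array, the 5 whose pair of ratios to vector lay nearest to that of PUT4 were GRE2 (distance 0.10 on the log2 scale), TUP1 (0.14), YBR220C (0.16), SFP1 (0.18) and PPZ1 (0.18). With 3 arrays this likeness rests on 2 ratios per gene, which share the vector array, and PUT4 itself lay below that percentile on the vector array.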

How the data were processed

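Levels were measured on 3 one-colour arrays, 1 per group, of RNA pooled from 3 cultures, per the series' design text. The authors deposited 1 linear intensity per gene and block after RMA, which the submitters' processing notes name without a version. The 5777 genes have 3 blocks on each array and up to 8 probes, per the file headers. Values per probe and probe positions were not used. Block intensities were log2 transformed and averaged with neither floor nor pseudocount, and ratios are differences of these means. No further normalization was applied. Only 1 array per group limits the precision, and no test was possible.

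Genes were named through RefSeq's table of assembly R64 by locus tag (5771 matched, 6 kept the array's name); LAP4 and DUR1,2 were matched under the table's names APE1 and DUR12. Coordinates were copied from the array files, whose annotation dates from 2008, and span the coding sequence. The 10 genes, the lists of other nitrogen genes and the alternatives were chosen with earlier results of these data known. All 10 genes were named, and of the other lists every gene past 2-fold in any comparison and otherwise up to 4 with the largest ratios to vector; further ones, DAL1, DAL7, PUT2, PUT3, URE2, GAT3 and ECM23, were added after their values were seen. Loess used a span of 0.3 (statsmodels 0.14.6, Python 3.11.15), and the calculations were tested on simulated data.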

Additional observations from a re-analysis of the deposited data

How the results depend on the processing

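Each ratio was computed in 9 other ways. The count of the 10 genes past 2-fold with Ssz1 S295F was 2, and became 1 after a loess on mean level, 1 after a loess on coding length, 1 without genes under the 25th percentile on both arrays of the pair and 1 at 3-fold. With the Zuo1 fragment it was 2, and became 1 after centring on the median of all genes, 1 after quantile normalization, 1 after either loess, 1 under the same filter and 0 at 3-fold. PUT4 stayed past 2-fold under the 8 ways other than the filter. The filter kept it through its construct readings alone, its vector reading being at the 10.2nd percentile. Apart from the 3-fold rule with the Zuo1 fragment, which PUT4 also missed, it was thus DAL80 that left the count. The filter on low levels removed DAL80. Of the 55 other nitrogen genes, 6 passed 2-fold with Ssz1 S295F (14 at 1.5-fold and 2 at 3-fold) and 4 with the Zuo1 fragment (11 at 1.5-fold and 1 at 3-fold). No ratio past 2-fold changed sign. The series-wide table and the single blocks left the counts of the 10 genes at 2 and 2. That table holds the block means again (largest relative difference 3.33e-10) and the blocks make up the main ratio, so neither is a separate check. No paired analysis was possible because each group has 1 array. Readings below the 5th percentile of an array limit what can be said of DAL80.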
